A study of Mus musculus with 32 samples.

Results

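Macrophage identity genes and the genes of complement C1q were followed after HDM or sham at 2 sites, the back skin and the ear. The mice were NC/Nga, which readily develop dermatitis. The set was 10 genes chosen by symbol, with earlier results of these data known. It held the receptors Cd163, Mrc1, Folr2, Adgre1 and Csf1r, the C1q chains C1qa, C1qb and C1qc, and Lyz2 and Cd68. Of these symbols, 9 were attached to a row of the array table, so 9 of 10 genes were followed, out of 19505 genes with a symbol. Only rows annotated with 1 symbol were matched, 19572 of the 22206 tested. Among them Cd68 had no match and was not analysed here, and each of the 9 genes had a single row.

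The tissue was an 8 mm punch of dorsal skin or ear, and total RNA was read on Mouse Clariom D arrays, 1 array per sample. The 4 groups were HDM back skin, sham back skin, HDM ear and sham ear, with 8 arrays each and 32 in all. All mice are NC/Nga. The labels do not spell out HDM, do not describe the sham, and give neither age nor the length of the treatment. Both sites use mouse numbers 1 to 8, and nothing says whether equal numbers name the same animal.

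Tissue macrophages take up dying cells, debris and free haemoglobin, and they depend on signalling through CSF1R, the receptor for CSF1 and IL-34. In the skin they lie mostly in the dermis, and monocytes from the blood add to them in inflammation. C1q is the recognition molecule of the classical complement pathway, built of A, B and C chains. Unlike most complement proteins, which come largely from the liver, C1q is made mainly by macrophages and dendritic cells in tissues.

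In the ear, all 9 genes rose with HDM, and the largest changes were in the scavenger receptors Cd163 and Mrc1 and in C1qb, near 10-fold. In back skin, none of the 9 passed the test. The difference between the responses at the sites passed its own test for 8 of the 9 genes, with Adgre1, an adhesion receptor used to mark mouse macrophages, as the exception. Of these 8, C1qa and Folr2 passed narrowly and did not pass when some arrays were left out. The levels are log2 values as deposited by the authors. Differences are HDM minus sham ± SE, from limma over all 32 arrays, with Benjamini-Hochberg adjustment over 22206 rows. A gene was called at an adjusted p under 0.05.

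The genes of the C1q chains lie side by side in the RefSeq gene order, as C1qb, C1qc and C1qa. Promoter stretches were used for 7 of the 10 listed genes, in RefSeq build GRCm38.p6, and cover 250 bases before to 50 bases after the start. The promoters of the C1q chains C1qb and C1qc and of the scavenger receptors Cd163 and Mrc1 are shown, since these 4 genes had among the largest rises in the ear. They are written 5′ to 3′ on the strand of the gene, and capitals mark a match to one of the motifs searched.
C1qb promoter, chr4:136886151-136886450, minus strand: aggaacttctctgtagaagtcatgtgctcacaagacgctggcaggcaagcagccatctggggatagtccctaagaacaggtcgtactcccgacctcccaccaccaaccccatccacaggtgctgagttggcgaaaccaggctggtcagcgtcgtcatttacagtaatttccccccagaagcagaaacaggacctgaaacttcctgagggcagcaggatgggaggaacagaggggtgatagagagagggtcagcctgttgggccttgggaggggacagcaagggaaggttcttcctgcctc
C1qc promoter, chr4:136892865-136893164, minus strand: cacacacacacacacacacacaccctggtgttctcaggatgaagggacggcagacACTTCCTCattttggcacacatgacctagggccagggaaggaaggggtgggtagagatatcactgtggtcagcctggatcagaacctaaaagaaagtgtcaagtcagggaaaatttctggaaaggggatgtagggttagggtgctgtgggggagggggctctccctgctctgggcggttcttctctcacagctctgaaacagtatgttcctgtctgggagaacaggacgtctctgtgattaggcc
Cd163 promoter, chr6:124304401-124304700, plus strand: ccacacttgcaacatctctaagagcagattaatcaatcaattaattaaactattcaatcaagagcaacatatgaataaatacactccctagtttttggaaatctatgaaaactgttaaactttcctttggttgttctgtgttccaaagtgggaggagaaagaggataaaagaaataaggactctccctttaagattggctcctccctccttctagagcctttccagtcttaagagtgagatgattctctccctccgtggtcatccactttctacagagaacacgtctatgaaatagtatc
Mrc1 promoter, chr2:14229164-14229463, plus strand: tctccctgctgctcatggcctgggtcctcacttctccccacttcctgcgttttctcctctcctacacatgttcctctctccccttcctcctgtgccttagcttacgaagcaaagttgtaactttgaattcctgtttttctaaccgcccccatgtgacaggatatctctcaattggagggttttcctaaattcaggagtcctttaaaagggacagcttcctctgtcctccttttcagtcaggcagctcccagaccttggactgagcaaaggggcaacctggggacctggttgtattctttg
Letters of 4 motifs were searched on both strands. GAGGAAGT, the PU.1 motif of the main myeloid transcription factor, was present in 3.20% of 32851 promoters of the same length. It matched once among the 4 shown, in C1qc, as ACTTCCTC on the opposite strand, from base -195 to base -188 counted from the start. TTGCNNAA, a C/EBP motif, was present in 10.8% of promoters, TGANTCA, the AP-1 motif, in 7.81%, and TGCTGAC, part of the MAF motif, in 4.67%, and none of these lay in the 4 promoters shown. In Lyz2 none of the 4 motifs was found either. The promoter of Cd68, whose symbol matched no row, held TTGCTAAA from base -43 to base -36 and TGAGTCA from base -149 to base -143 and from base -24 to base -18. Folr2 has stretches for separate starts, and one held TGACTCA from base -74 to base -68. A match is a description of letters, and none of these stretches was tested for binding.

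**Figure D1:**
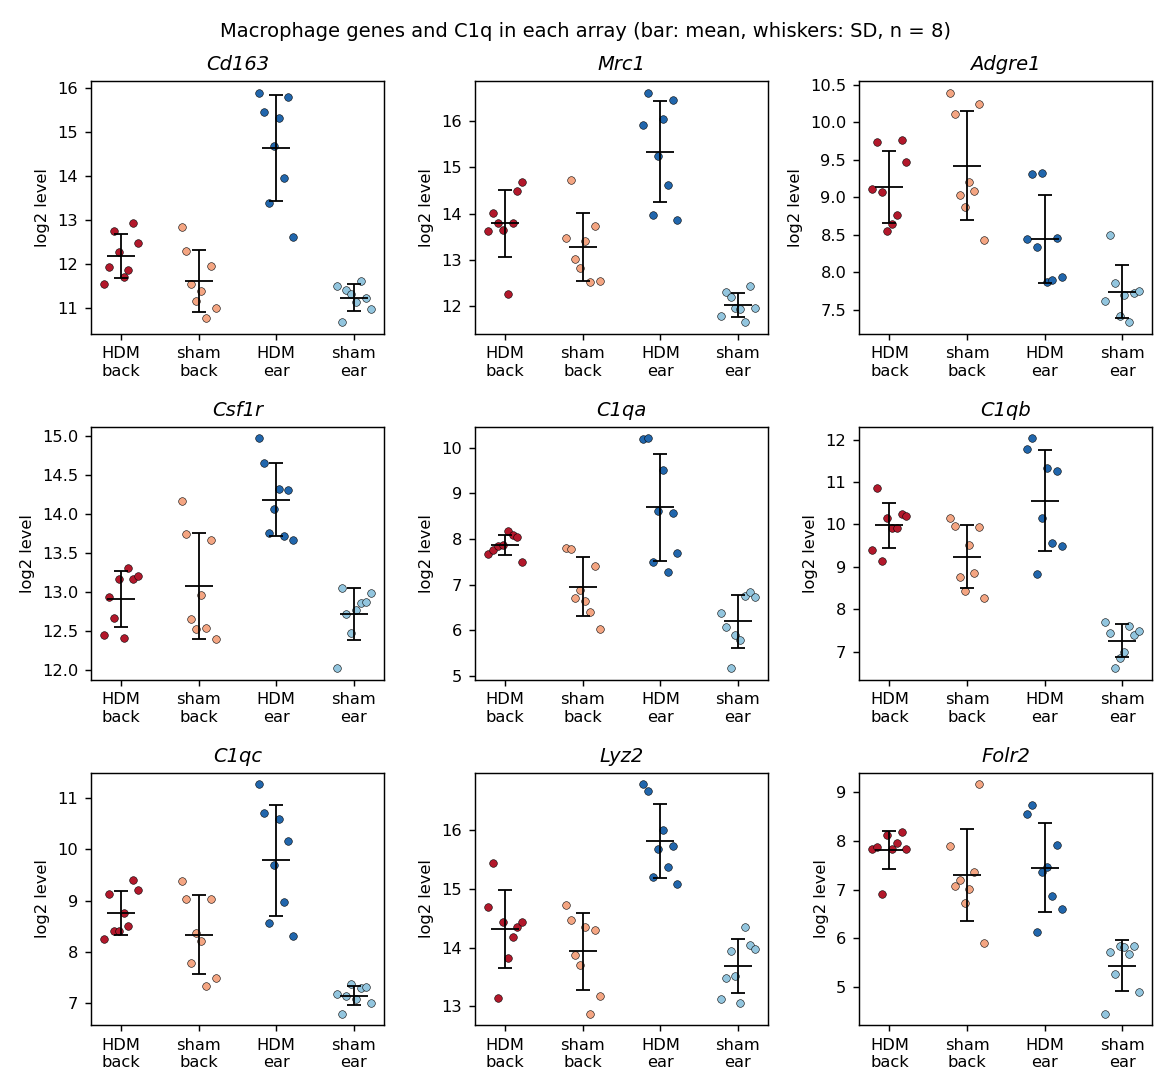
Log2 level of each of the 9 genes on every array (points), with the group mean (bar) and SD (whiskers), for HDM back skin, sham back skin, HDM ear and sham ear, n = 8 each. For every gene but Adgre1, all 8 HDM ears lie above all 8 sham ears, while the back skin groups overlap for all 9.

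Array medians lay between 5.91 and 6.26, and each array correlated with the mean of the rest of its group at 0.975 or above. Background, the median of an array's negative control rows, was between 4.43 and 5.38. The 9 genes were above it on every array, apart from 1 sham ear for C1qa and 3 of 8 sham ears for Folr2. The label of the set was checked on 15 macrophage markers with a row, these 9 among them. All 15 were above background on 8 of 8 arrays in HDM back skin and in HDM ear, 14 in sham back skin and 10 in sham ear. Fcgr1, a high-affinity IgG receptor, was above background on 0 of 8 sham ears. Not every marker rose with HDM. Mertk, a receptor for dying cells and also 1 of the 15, fell by 0.91 ± 0.27 in ear (adjusted p = 0.0080, limma) and had a difference of -0.46 ± 0.27 in back skin (adjusted p = 0.270). Outside the 15, and chosen after their values were seen, Timd4 and Siglec1 were near background and Adgre4 had lower means with HDM. Timd4, a phosphatidylserine receptor of resident macrophages, was above background on 1 HDM back sample against 4 sham back samples, and on 2 HDM ears against 0 sham ears. Siglec1, a sialic acid-binding receptor, was above it on 6 HDM back samples against 7 sham back samples, and on 2 HDM ears against 0 sham ears. Adgre4, a relative of Adgre1, averaged 5.13 in HDM back skin and 6.90 in sham back skin, and 5.31 in HDM ears and 7.27 in sham ears. Within sham back skin, mice 1 and 2 stood apart: the mean of 9 hair follicle genes was 8.27 and 12.13 there, against 13.60 to 16.13 on the other 6 arrays. The same 2 mice had the highest means of 6 pan-leukocyte genes in that group, 9.96 and 9.92, against 8.13 to 9.21. Results of the 9 genes that involve sham back skin are therefore also given without these 2 arrays. This was done where a call or a sign changed or the value moved by more than 1.5 times. For other named genes and the gene lists, only results with all 8 sham back arrays are given. Mice 1 and 2 were also high for the 9 genes, with mean deviations from the group means of 0.85 and 0.68. Leaving them out therefore raises HDM minus sham in back skin. Mouse 7, at 0.70, was kept. In whole tissue, more cells of a type and more RNA per cell cannot be told apart.

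The scavenger receptors come first. Cd163, the receptor that clears haemoglobin bound to haptoglobin, had a level of 12.61 at the lowest, 14.99 at the median and 15.89 at the highest in HDM ears, against 10.68, 11.28 and 11.62 in sham ears. Every HDM ear was above every sham ear, and mouse 8 was the lowest and mouse 1 the highest of the HDM ears. The difference was 3.39 ± 0.36, or 10.5-fold (adjusted p = 1.9e-08, limma). In back skin Cd163 was 11.56, 12.11 and 12.93 with HDM, against 10.78, 11.46 and 12.83 with sham, and the groups overlapped. The difference there was 0.57 ± 0.36 (95% interval -0.16 to 1.30, adjusted p = 0.321). Of the 8 HDM back samples, 7 were above the sham mean.

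Mrc1, the mannose receptor CD206, followed the same course. Its level was 13.87, 15.58 and 16.62 (lowest, median, highest) in HDM ears, against 11.65, 11.96 and 12.43 in sham ears, with a gap of more than a log2 unit between the groups. The rise was 3.32 ± 0.36, or 9.95-fold (adjusted p = 3.3e-08, limma). HDM back skin had 12.26, 13.79 and 14.68, against 12.52, 13.21 and 14.73 in sham back skin. The lowest of all 16 back samples was HDM mouse 5 at 12.26, and the difference of 0.51 ± 0.36 did not pass (95% interval -0.23 to 1.24, adjusted p = 0.392).

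Folr2, the folate receptor beta of tissue macrophages, was above background on the fewest arrays of the 9 genes. HDM ears had levels of 6.12, 7.42 and 8.73, against 4.44, 5.70 and 5.84 in sham ears, 5 of which were above background. The groups did not overlap, and the difference was 2.02 ± 0.35 or 4.04-fold (adjusted p = 3.3e-05, limma). HDM back skin had 6.90, 7.86 and 8.18, against 5.91, 7.13 and 9.17 in sham back skin. The highest Folr2 level of the study was thus in a sham sample, the back skin of mouse 7. The back skin difference was 0.53 ± 0.35 (95% interval -0.19 to 1.24, adjusted p = 0.352). Folr1, the neighbouring folate receptor gene, rose in back skin by 0.83 ± 0.19 (adjusted p = 0.00236) and had a difference of 0.26 ± 0.19 in ear (adjusted p = 0.329).

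Csf1r, the receptor tyrosine kinase on which macrophages depend for survival, was 13.66, 14.19 and 14.97 in HDM ears, against 12.02, 12.81 and 13.05 in sham ears. All HDM ears were above all sham ears, with a difference of 1.46 ± 0.23 or 2.76-fold (adjusted p = 1.0e-05, limma). Back skin had 12.41, 13.05 and 13.30 with HDM, against 12.39, 12.81 and 14.16 with sham. The mean was lower with HDM by 0.17 ± 0.23, which did not pass (95% interval -0.64 to 0.31, adjusted p = 0.706). The sign of that difference turned to 0.13 (adjusted p = 0.763) without sham back mice 1 and 2.

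Adgre1, a G protein-coupled adhesion receptor, had the smallest change of the 9 genes in ear. Its level was 7.87, 8.39 and 9.33 in HDM ears, against 7.33, 7.71 and 8.50 in sham ears. The groups overlapped, with 2 HDM ears above the highest sham ear, that of mouse 2 at 8.50. The difference was 0.71 ± 0.27 or 1.64-fold and passed (adjusted p = 0.0392, limma). That call was lost when any one of 10 arrays was left out, with adjusted p between 0.0195 and 0.102 over all 32 such fits. The 10 were sham ear mice 1, 4, 5, 6, 7 and 8 and HDM ear mice 1, 2, 4 and 7. In back skin Adgre1 was 8.55, 9.09 and 9.77 with HDM, against 8.43, 9.15 and 10.40 with sham, a difference of -0.28 ± 0.27 (95% interval -0.83 to 0.26, adjusted p = 0.542).

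The C1q chains rose together in the ear. C1qb had a level of 8.83, 10.72 and 12.03 in HDM ears, against 6.61, 7.42 and 7.70 in sham ears, a rise of 3.30 ± 0.37 or 9.83-fold (adjusted p = 5.4e-08, limma). C1qc had 8.31, 9.93 and 11.27, against 6.79, 7.16 and 7.37, a rise of 2.64 ± 0.33 or 6.22-fold (adjusted p = 4.0e-07). C1qa had 7.28, 8.60 and 10.21, against 5.17, 6.23 and 6.83, a rise of 2.50 ± 0.35 or 5.64-fold (adjusted p = 1.9e-06). For each chain, all 8 HDM ears were above all 8 sham ears. Of the genes flanking the cluster that had a row, Epha8 fell by 0.26 ± 0.10 (adjusted p = 0.0445), and Lactbl1 and Zbtb40 had differences of -0.20 ± 0.12 (adjusted p = 0.251) and 0.20 ± 0.29 (adjusted p = 0.654).

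In back skin, C1qa came closest to the threshold of the 9 genes. It was 7.50, 7.86 and 8.17 with HDM, against 6.03, 6.79 and 7.80 with sham. All 8 HDM samples were above the sham mean and 5 were above the highest sham sample. The difference was 0.91 ± 0.35 (95% interval 0.20 to 1.63), with an unadjusted p of 0.0141 and an adjusted p of 0.0778 (limma). The SD of C1qa was 0.23 in HDM back skin, 0.65 in sham back skin, 1.17 in HDM ears and 0.58 in sham ears, and the fit of all 4 groups uses 1 shared spread. With the 2 back skin groups alone, the same difference had an adjusted p of 0.00987. Sham back mice 1 and 2 had the highest C1qa levels of their group, 7.80 and 7.79, so leaving them out lowers the sham mean. Without them the difference was 1.19 (adjusted p = 0.0259). C1qb was 9.13, 10.03 and 10.87 in HDM back skin, against 8.27, 9.19 and 10.14 in sham back skin, a difference of 0.74 ± 0.37 (95% interval -0.01 to 1.49, adjusted p = 0.192). C1qc was 8.26, 8.63 and 9.41, against 7.34, 8.29 and 9.39, a difference of 0.43 ± 0.33 (95% interval -0.26 to 1.11, adjusted p = 0.447).

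Lyz2, lysozyme M, a bactericidal enzyme of macrophages and neutrophils, was 15.09, 15.72 and 16.79 in HDM ears, against 13.06, 13.73 and 14.36 in sham ears. The groups did not overlap, and the rise was 2.13 ± 0.29 or 4.39-fold (adjusted p = 1.3e-06, limma). HDM back skin had 13.14, 14.39 and 15.45, against 12.87, 14.10 and 14.73 in sham back skin, a difference of 0.37 ± 0.29 (95% interval -0.22 to 0.97, adjusted p = 0.444). Lyz1, the near-identical lysozyme gene beside it, fell by 1.26 ± 0.28 in back skin (adjusted p = 0.00162) and rose by 1.25 ± 0.28 in ear (adjusted p = 0.000597). The probes of close copies can pick up each other's RNA. The Lyz2 and Lyz1 rows had 0 identical values and correlated at 0.46 over 32 arrays, which share the 4 groups.

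Counted over the set, 9 of 9 genes were called higher in HDM ears than in sham ears, and 16.4% of all tested rows were. With dim rows left out, those above background on fewer than 8 of the 32 arrays, 26% of 13661 rows were. The 9 genes were chosen with earlier results of these data known, so the shares of rows are no test of the set. For 8 of 9 the groups did not overlap, as for 4.99% of all rows. The median difference of the 9 was 2.50, against -0.02 over all rows. In back skin 0 of 9 genes were called by limma, 1 of 9 (C1qa) at an unadjusted p under 0.05, and 14.7% of all rows were called, 6.18% of all rows higher. With dim rows left out, 24.7% of rows were called in back skin, and 9.98% were called higher. The median difference was 0.51, against 0.01 over all rows, and 7 of 9 differences were above 0. Without sham back mice 1 and 2, the back skin difference was 0.88 for Cd163 (adjusted p = 0.108), 0.78 for Mrc1 (0.168), 0.72 for C1qc (0.171), 0.60 for Lyz2 (0.211) and -0.01 for Adgre1 (0.992), none of them called. When array medians were made equal, the median over all rows in back skin moved to 0.13 and C1qa was called (difference 1.04, adjusted p = 0.0409).

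**Figure D2:**
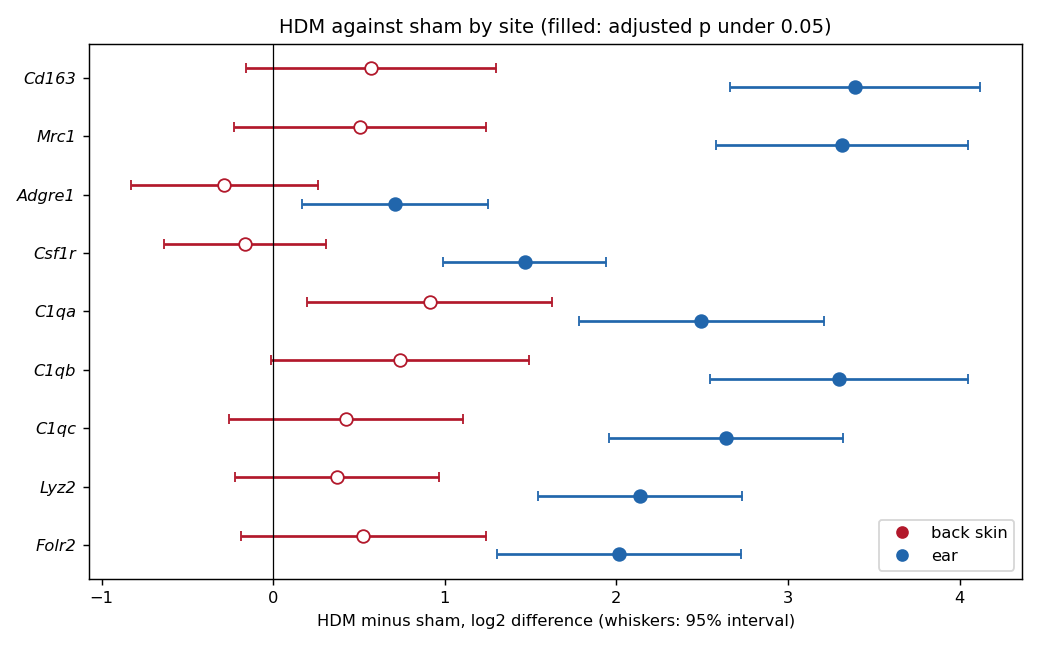
Difference between HDM and sham in log2 units (points) with its 95% interval (whiskers), for back skin and ear, for each of the 9 genes; filled points passed an adjusted p under 0.05. All 9 ear values are filled and lie between 0.71 and 3.39, and all 9 back skin values are open and lie between -0.28 and 0.91.

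The response at the sites was compared directly as the HDM effect in ear minus the HDM effect in back skin, and 8 of 9 genes were called higher, against 6.77% of all rows. That share was 11.7% with dim rows left out. Cd163 differed by 2.82 ± 0.51 (adjusted p = 0.00054), Mrc1 by 2.81 ± 0.51 (adjusted p = 0.00061) and C1qb by 2.56 ± 0.52 (adjusted p = 0.0017), all by limma. The difference of effects was 2.21 ± 0.47 for C1qc (adjusted p = 0.0027), 1.76 ± 0.41 for Lyz2 (adjusted p = 0.0055) and 1.63 ± 0.33 for Csf1r (adjusted p = 0.0016). The calls of the other two lay nearer the threshold. C1qa differed by 1.58 ± 0.50 (adjusted p = 0.0369) and Folr2 by 1.49 ± 0.49 (adjusted p = 0.0497). Without sham back mice 1 and 2, 6 of 9 genes were called, against 5.47% of all rows, and C1qa (1.30, adjusted p = 0.105) and Folr2 (1.43, adjusted p = 0.0870) were not. Adgre1 differed by 1.00 ± 0.38 and was not called (95% interval 0.23 to 1.76, adjusted p = 0.0896).

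The sham groups showed where the genes stood without HDM. In all, 5 of 9 genes were lower in sham ear than in sham back skin, and 14.1% of all rows were. With dim rows left out, 22.1% of rows were lower. C1qb was lower in the ear by 1.98 ± 0.37 on the log2 scale (adjusted p = 8.3e-05, limma), Folr2 by 1.85 ± 0.35 (adjusted p = 9.4e-05) and Adgre1 by 1.69 ± 0.27 (adjusted p = 7.8e-06). Mrc1 was lower by 1.25 ± 0.36 (adjusted p = 0.0077) and C1qc by 1.19 ± 0.33 (adjusted p = 0.0066). For Mrc1, C1qb and Folr2, all 8 sham ears lay below all 8 sham back samples, as for 4.14% of all rows. Cd163 (-0.38 ± 0.36), Csf1r (-0.36 ± 0.23), C1qa (-0.75 ± 0.35) and Lyz2 (-0.25 ± 0.29) did not pass, with adjusted p between 0.108 and 0.574. Without sham back mice 1 and 2, C1qc was no longer called (-0.89, adjusted p = 0.0503). The differences of Cd163, Csf1r, C1qa and Lyz2 then lay nearer 0, at -0.06 (adjusted p = 0.930), -0.07 (0.861), -0.47 (0.378) and -0.03 (0.959).

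Between the HDM groups the order of the sites was partly the other way. Cd163 was higher in HDM ear than in HDM back skin by 2.44 ± 0.36 (adjusted p = 2.6e-06, limma), Mrc1 by 1.55 ± 0.36 (adjusted p = 0.0012), Lyz2 by 1.51 ± 0.29 (adjusted p = 0.00014), Csf1r by 1.27 ± 0.23 (adjusted p = 7.1e-05) and C1qc by 1.03 ± 0.33 (adjusted p = 0.0195). These 5 of 9 stand beside 16.8% of all rows called higher, and 27% of rows with dim rows left out. Only Csf1r of the 9 had all HDM ears above all HDM back samples, as had 4.22% of all rows. C1qa (0.83 ± 0.35), C1qb (0.58 ± 0.37), Folr2 (-0.37 ± 0.35) and Adgre1 (-0.69 ± 0.27) did not pass, with adjusted p of 0.0771, 0.263, 0.492 and 0.0506. The C1qc call was lost with the 2 HDM groups alone (adjusted p = 0.0510) and without HDM ear mouse 1 (adjusted p = 0.0583). C1qa was called when HDM ear mouse 3, 6 or 8 was left out, with adjusted p down to 0.0220.

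Ordered by their means, the 4 groups ran HDM ear, HDM back, sham back and sham ear for Cd163, Mrc1, C1qa, C1qb, C1qc and Lyz2. Neighbours in that order often did not differ. For Cd163 and Lyz2 the step that passed was the one between HDM ear and HDM back. For C1qb it was the one between sham back and sham ear, and for Mrc1 and C1qc both of these passed. None of the 3 steps passed for C1qa, although HDM and sham ears at the ends of the order differed. Csf1r ran HDM ear, sham back, HDM back and sham ear, and only its first step passed (1.10 ± 0.23, adjusted p = 0.0003). Folr2 ran HDM back, HDM ear, sham back and sham ear, and only its last step passed. Adgre1 was highest in sham back and ran sham back, HDM back, HDM ear and sham ear, with only the last step past the threshold. It was also lower in HDM ear than in sham back, by 0.97 ± 0.27 on the log2 scale (adjusted p = 0.0042).

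**Figure D3:**
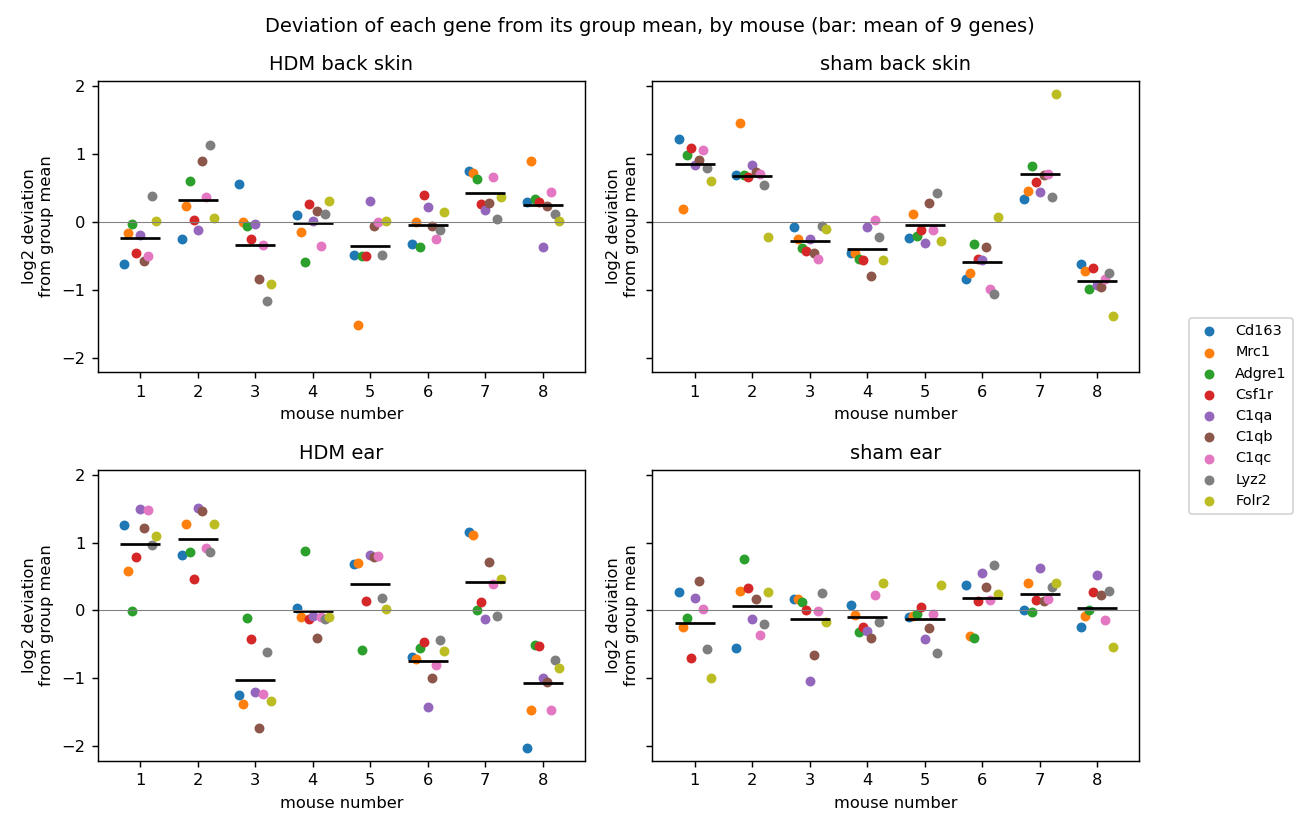
Deviation of each of the 9 genes from its own group mean (points, log2 units) for every mouse number in the 4 groups; the bar is the mean of the 9 deviations. In HDM ear, mice 1 and 2 are high at 0.99 and 1.05, and mice 3, 6 and 8 lie below the group mean for all 9 genes.

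How far the genes varied together from mouse to mouse differed between the groups. Among the 36 pairs of the 9 genes, 36 had a positive correlation over the 8 HDM ears (median r 0.91) and 36 over the 8 sham back samples (median r 0.84). Only 26 pairs had one in HDM back skin (median r 0.35, lowest -0.57) and 19 in sham ears (median r 0.03, lowest -0.87). In HDM ears the mean deviation of the 9 genes from their group means ran from -1.07 in mouse 8 to 1.05 in mouse 2. Mice 3, 6 and 8 were below the group mean for 9 of 9 genes, mouse 2 was above it for 9 of 9, and mice 1 and 5 for 8 of 9. The mean of 6 pan-leukocyte genes was 10.71 to 11.89 in HDM ears 1, 2, 5 and 7, against 9.03 to 9.93 in mice 3, 4, 6 and 8. In sham back skin, mice 1, 2 and 7 were high, with mean deviations of 0.85, 0.68 and 0.70, and mouse 1 had the highest level of the group for 7 of 9 genes. Sham ears spread least, with mean deviations between -0.19 and 0.25. Over the 32 arrays, deviations from group means correlated positively in all 36 pairs of genes, with r between 0.40 and 0.88 and a median of 0.68. C1qc had the highest mean r with the other members, 0.74, and Adgre1 the lowest, 0.51. The values over 32 arrays pool the groups and weigh most on HDM ears and sham back skin, where most of the 9 genes spread widest. All of these correlations describe the same arrays and carry no test.

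**Figure D4:**
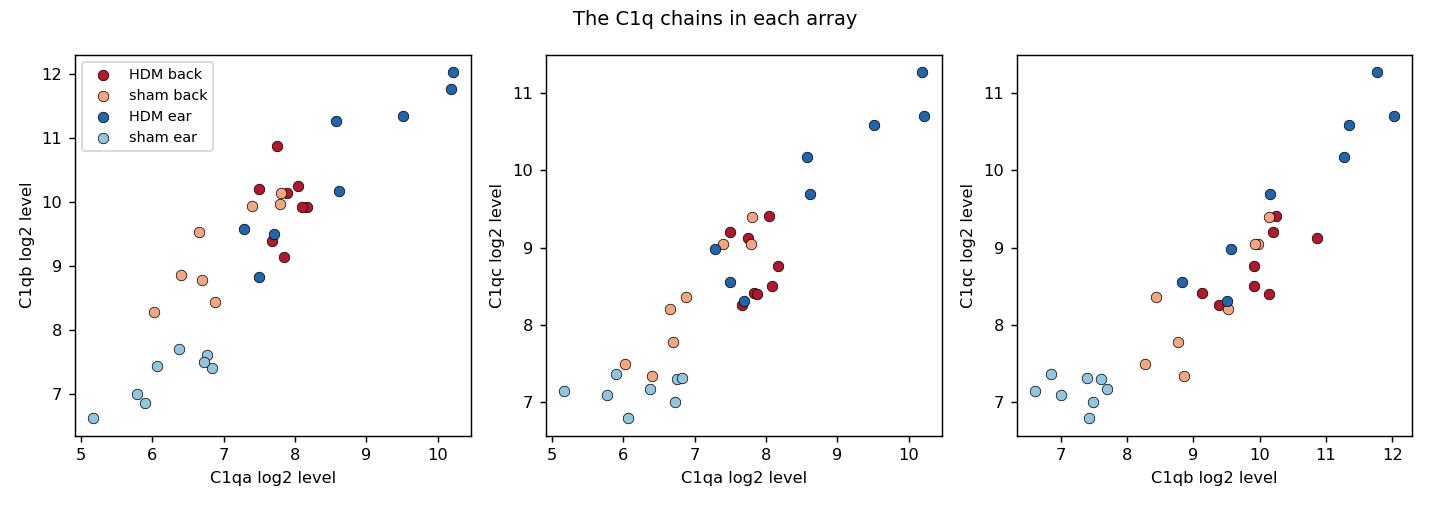
Log2 levels of the 3 C1q chains against each other, 1 point per array, coloured by group. HDM ears and sham back samples lie along a diagonal, while in HDM back skin C1qa stays between 7.50 and 8.17 whatever the level of C1qb or C1qc.

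The C1q chains were set against each other within each group, as 12 correlations of 8 arrays with exact permutation p, two-sided and adjusted over the 12. In HDM ears, Pearson's r was 0.93 for C1qa with C1qb, 0.93 for C1qa with C1qc and 0.95 for C1qb with C1qc, each with an adjusted exact p of 0.0062 and Spearman's rho of 0.90, 0.86 and 0.95 (adjusted exact p of 0.0183, 0.0321 and 0.0068). Without the 2 arrays farthest from the median, r was 0.87, 0.90 and 0.96. In sham back skin r was 0.86, 0.95 and 0.84 for the same pairs (adjusted exact p of 0.0210, 0.0062 and 0.0303), rho was 0.79, 0.95 and 0.75 (adjusted exact p of 0.0670, 0.0068 and 0.0764), and r without 2 arrays was 0.71, 0.91 and 0.72. In HDM back skin C1qa did not follow C1qb (r = -0.04, rho = -0.11) or C1qc (r = -0.07, rho = 0.07), with adjusted exact p of 0.88 or more and r of 0.14 and 0.32 without 2 arrays. C1qb with C1qc had r of 0.70 and rho of 0.73 there (adjusted exact p of 0.0794 and 0.0801, r of 0.72 without 2 arrays). In sham ears C1qa with C1qb had r of 0.86 (adjusted exact p of 0.0179, 0.79 without 2 arrays) and rho of 0.67 (adjusted exact p of 0.125). C1qc in sham ears had r of 0.16 with C1qa and -0.15 with C1qb, rho of 0.26 and -0.14, and r of 0.06 and 0.19 without 2 arrays (adjusted exact p of 0.715 or more). C1qc spanned only 6.79 to 7.37 in sham ears. C1qa ran from 5.17 to 6.83 there, with 7 of 8 arrays above background, so its correlation with C1qb includes levels near background.

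Among all named genes, those whose deviations from group means were most like the mean of the C1q chains over 32 arrays were Alox5ap (r = 0.92), the leukotriene pathway activator, Fcgr3 (r = 0.91), an IgG receptor, and Sla (r = 0.91). Cd163 was most like C1qc (0.88), Ccl8 (0.86) and Fcgr3 (0.86), and Mrc1 most like P2rx4 (0.85), Ccl8 (0.84) and Fcgr3 (0.84). Csf1r was most like Sirpa (0.87), Dab2 (0.86) and Csf1 (0.85), the gene of its own ligand. Lyz2 was most like the cathepsin gene Ctss (0.85), S100a10 (0.79) and Emb (0.78). For the single chains the nearest genes were Tlr13 (0.88), Alox5ap (0.87) and Sirpb1c (0.87) for C1qa, Sla (0.90), Ndufa4l2 (0.88) and Saa3 (0.87) for C1qb, and Ncf1 (0.90), Vsir (0.90) and Cyth4 (0.89) for C1qc. The nearest genes of Folr2 were Ifi204 (0.77), Siglec1 (0.76) and Inhba (0.76), although Siglec1 was above background on only 2 of 8 HDM ears and 0 of 8 sham ears. Those of Adgre1 were Trpv2 (0.74), Clec4b1 (0.74) and P3h3 (0.73).

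Other complement genes went in both directions. Of 31 other complement genes with a row, 10 rose and 2 fell in HDM ear, and 4 rose and 3 fell in HDM back skin, with median differences of 0.22 in ear and -0.02 in back skin. For this list and those that follow, the shares of all rows called were 16.4% higher and 15.5% lower in ear and 6.18% higher and 8.56% lower in back skin, and the medians over all rows were -0.02 in ear and 0.01 in back skin. With dim rows left out, the shares were 26% higher and 24.6% lower in ear and 9.98% higher and 14.7% lower in back skin. Cfi, 1 of the 4 counted as risen in back skin (0.47, adjusted p = 0.0354), was above background on none of those 16 arrays. The largest rises in ear were in receptors carried by leukocytes. Itgam, a chain of complement receptor CR3, averaged 9.82 ± 1.78 in HDM ears and 6.67 ± 0.49 in sham ears (SD, n = 8 each), a rise of 3.15 ± 0.51 (adjusted p = 1.2e-05, limma). C3ar1, the C3a receptor, rose by 2.93 ± 0.34 (adjusted p = 1.3e-07) and Itgb2, the beta chain of CR3, by 2.82 ± 0.38 (adjusted p = 9.3e-07). C1ra and C1s1, genes of the proteases that bind C1q, rose in ear by 0.98 ± 0.25 (adjusted p = 0.0022) and 0.64 ± 0.16 (adjusted p = 0.0026), and were chosen for mention after their values were seen. In back skin, the largest were C6, of the membrane attack complex, which rose by 1.52 ± 0.32 (adjusted p = 0.0013), Serping1, the C1 inhibitor, which fell by 0.94 ± 0.18 (adjusted p = 0.00036), and C8g, which rose by 0.81 ± 0.25 (adjusted p = 0.025).

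Of 17 other genes of the CSF1R axis and of myeloid transcription factors and cytokine receptors, 11 rose and 2 fell in HDM ear (median 0.89), and 3 rose and 0 fell in HDM back skin (median 0.01). Csf3r, the G-CSF receptor that neutrophils carry in quantity, averaged 10.66 ± 3.11 in HDM ears and was not above background in any of 8 sham ears (mean 4.01), so HDM was at least 43.9-fold higher (adjusted p = 2.9e-07, limma). Such bounds take the background level of the array in place of a dimmer value. They compare group means and hold no sampling error, and the adjusted p beside each belongs to the difference as measured. Csf2rb, the common beta chain of the GM-CSF receptor, rose by 2.98 ± 0.43 in ear (adjusted p = 2.9e-06), and Spi1, the gene of PU.1, by 2.91 ± 0.33 (adjusted p = 7.4e-08). In back skin Csf3r rose by 4.38 ± 0.82 (adjusted p = 0.00033), the transcription factor genes Bhlhe40 by 1.67 ± 0.19 (adjusted p = 2.4e-07) and Cebpb by 0.77 ± 0.24 (adjusted p = 0.0287). Csf1, named here for its role as the ligand of CSF1R, averaged 14.55 ± 0.38 in HDM ears and 13.16 ± 0.38 in sham ears, and 12.65 ± 0.34 in HDM back skin and 12.85 ± 0.80 in sham back skin (SD, n = 8 each). It rose in ear by 1.39 ± 0.25 (adjusted p = 4.1e-05) and had a difference of -0.20 ± 0.25 in back skin (adjusted p = 0.658). Il34, the gene of the other ligand, went the opposite way in ear. It averaged 7.52 ± 0.36 in HDM ears and 8.25 ± 0.29 in sham ears, which is lower with HDM by 0.73 ± 0.20 log2 units (adjusted p = 0.0052, limma). In back skin it averaged 6.29 ± 0.14 with HDM and 6.66 ± 0.68 with sham, a difference of -0.37 ± 0.20 (adjusted p = 0.240).

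**Figure D5:**
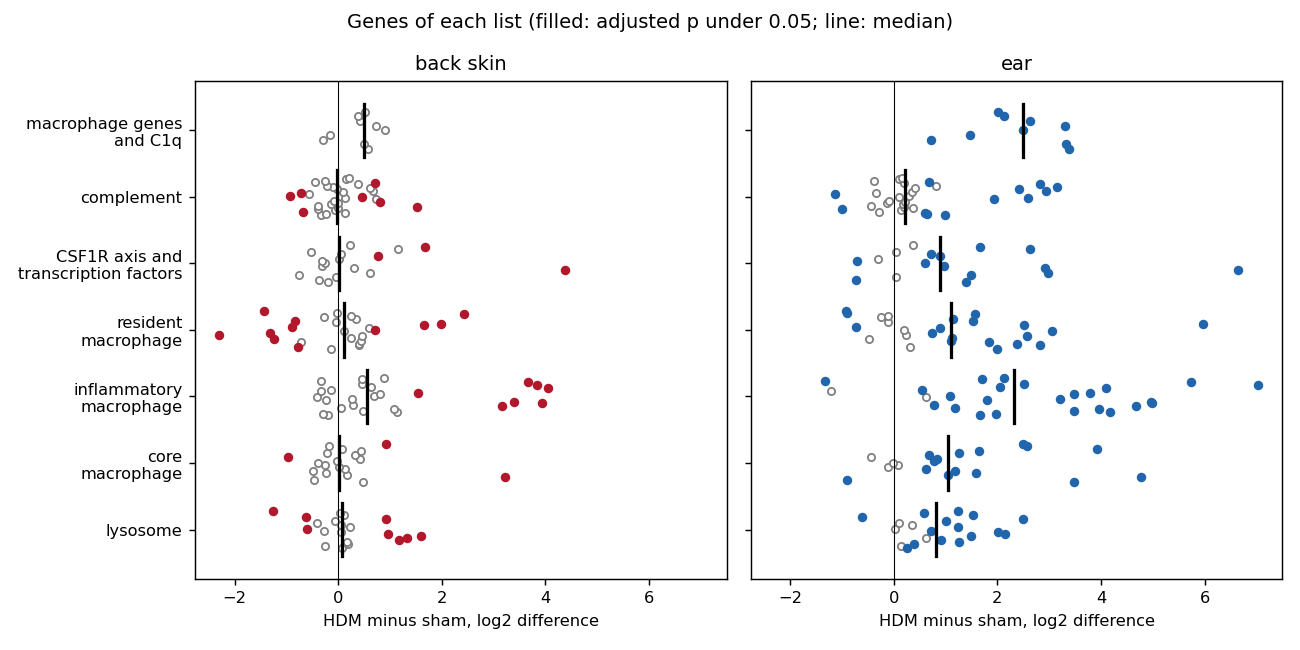
HDM minus sham in log2 units for each gene (points) of the 9-gene set and of 6 other lists, in back skin and ear; filled points passed an adjusted p under 0.05 and vertical lines are list medians. In ear the medians run from 0.22 for complement to 2.50 for the 9 genes, and in back skin from -0.02 to 0.56.

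Genes of resident macrophages changed in both directions in back skin, where 4 of 25 rose and 7 fell (median 0.11), while 15 rose and 3 fell in ear (median 1.11). Ccl8, a monocyte-attracting chemokine, was 13.74 ± 2.05 in HDM ears and 7.78 ± 0.52 in sham ears (SD, n = 8 each), a rise of 5.96 ± 0.54 (adjusted p = 1.1e-09, limma), and rose in back skin by 1.99 ± 0.54 (adjusted p = 0.0103). The chemokine gene Ccl24 rose in ear by 3.06 ± 0.49 (adjusted p = 1.1e-05), with 5 of 8 sham ears above background, and the C-type lectin gene Cd209f by 2.82 ± 0.45 (adjusted p = 1.0e-05). In back skin Hpgd, the prostaglandin-degrading enzyme, rose by 2.43 ± 0.21 (adjusted p = 1.1e-09) and the lectin gene Mgl2 fell by 2.29 ± 0.40 (adjusted p = 0.00012). In this list 2 genes went opposite ways at the sites, like Lyz1 of the lysosome list. Clec10a, a galactose-binding lectin of macrophages and dendritic cells, fell by 1.32 ± 0.28 in back skin (adjusted p = 0.0014) and rose by 0.74 ± 0.28 in ear (adjusted p = 0.0455). Fxyd2 fell by 0.83 ± 0.23 in back skin (adjusted p = 0.0118) and rose by 1.53 ± 0.23 in ear (adjusted p = 4.8e-06).

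Genes of monocytes and inflammatory macrophages had the highest medians of the 6 other lists. Of 26, 23 rose and 1 fell in HDM ear, with a median of 2.33, and 7 rose and 0 fell in HDM back skin, with a median of 0.56. Il1b, the cytokine interleukin-1 beta, was 11.22 ± 3.05 in HDM ears and not above background in any sham ear, at least 64.9-fold higher (adjusted p = 3.1e-07, limma). Chil3, a chitinase-like protein of alternatively activated macrophages, was 9.80 ± 2.21 in HDM ears against background in all 8 sham ears, at least 24.2-fold higher (adjusted p = 7.6e-09). Clec4e, the receptor Mincle, rose by 4.99 ± 0.67 in ear (adjusted p = 1.0e-06), with 1 of 8 sham ears above background. In back skin Arg1, arginase, rose by 4.04 ± 0.75 (adjusted p = 0.00029), Clec4e by 3.93 ± 0.67 (adjusted p = 9.8e-05), with 2 of 8 sham samples above background, and Il1b by 3.84 ± 0.88 (adjusted p = 0.0025). Since most sham values of Clec4e lay below background, its size is uncertain, and with such values raised to background the difference was 4.13 in ear and 3.48 in back skin.

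Core macrophage genes other than the 9 rose in ear for 14 of 19 and fell for 1 (median 1.04), and in back skin rose for 2 and fell for 1 (median 0.02). Cd14, the lipopolysaccharide co-receptor, led at both sites, with 4.78 ± 0.75 in ear (adjusted p = 9.2e-06, limma) and 3.22 ± 0.75 in back skin (adjusted p = 0.0031). Aif1, the gene of IBA1, rose in ear by 3.93 ± 0.50 (adjusted p = 4.6e-07). Only 1 of 8 sham ears was above background for it, and the difference was 2.83 with values below background raised to it. Fcgr1 was at least 6.96-fold higher in HDM ears (adjusted p = 1.9e-06). In back skin Abca1, a cholesterol exporter, fell by 0.97 ± 0.19 (adjusted p = 0.00064) and the protease gene Lgmn rose by 0.92 ± 0.27 (adjusted p = 0.0169). Among 20 lysosome genes, 14 rose and 1 fell in ear (median 0.81) and 5 rose and 3 fell in back skin (median 0.07). Lgmn rose in ear by 2.50 ± 0.27 (adjusted p = 2.4e-08), Ctss by 2.16 ± 0.31 (adjusted p = 2.8e-06) and Ctsz by 2.02 ± 0.29 (adjusted p = 3.2e-06). The cathepsin genes Ctsl and Ctsk rose in back skin by 1.61 ± 0.24 (adjusted p = 2.0e-05) and 1.33 ± 0.29 (adjusted p = 0.0016). The lists share some genes, and macrophages are not the sole source of most of them.

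Markers of other cells moved beside these genes, and their part in the results was not tested. Of 6 pan-leukocyte genes, 6 rose in HDM ear and 0 were called in HDM back skin. Their mean per array was 9.03 to 11.89 in HDM ears against 7.57 to 8.22 in sham ears, and 8.69 to 9.77 in HDM back skin against 8.13 to 9.96 in sham back skin. Ptprc, the gene of CD45, averaged 13.24 ± 1.15 in HDM ears and 11.27 ± 0.47 in sham ears, and 12.36 ± 0.37 in HDM back skin and 12.42 ± 0.94 in sham back skin (SD, n = 8 each). Neutrophil genes rose at both sites, 8 of 12 in ear and 7 of 12 in back skin, with 1 lower at each. Their mean per array was 6.76 to 10.82 in HDM ears against 3.94 to 4.91 in sham ears, and 7.49 to 8.66 in HDM back skin against 4.63 to 6.30 in sham back skin. Elane and Camp were at 0 of 8 arrays above background in every group.

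Dendritic and Langerhans cell genes fell in HDM back skin for 8 of 12 and rose for 1, Epcam, while in ear 0 of 12 were called. Their mean per array was 6.94 to 7.26 in HDM back skin against 7.39 to 9.11 in sham back skin, and 7.22 to 7.84 in HDM ears against 7.40 to 7.69 in sham ears. Cd207, the Langerhans cell lectin, averaged 6.16 ± 0.63 in HDM back skin and 8.05 ± 0.99 in sham back skin, and 7.26 ± 0.93 in HDM ears and 7.35 ± 0.41 in sham ears (SD, n = 8 each). Epcam averaged 14.47 in HDM back skin and 13.76 in sham back skin, far above the means of the list. Zbtb46 and Clec9a were above background on 0 of 8 arrays in all 4 groups. Clec9a (-0.48, adjusted p = 0.0077) is nonetheless among the 8 genes counted, so 7 of them had a level above background on at least 1 back skin array. T cell genes rose for 4 of 7 in ear and 2 of 7 in back skin. The CD3 chain genes Cd3e, Cd3d and Cd3g were called at neither site, with differences of -0.40, 0.48 and -0.38 in ear. Mast cell genes rose for 4 of 7 in ear and fell for 3 of 7 in back skin. Of 5 B and plasma cell genes, all 5 were above background on 0 of 8 arrays in both ear groups, and 4 in both back skin groups. Muscle genes fell for 7 of 7 in HDM ear and adipocyte genes for 7 of 7 in HDM ear and 5 of 7 in HDM back skin.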

How the data were processed

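The deposited values are log2 levels. The submitters' processing notes name RMA, which corrects background, normalizes by quantiles and summarises probes, and the Transcriptome Analysis Console as the authors' tools. For versions, build and annotation the sources used here give nothing. The values run from 1.71 to 19.93. A rescaling after RMA cannot be seen or dismissed from the files, and would distort folds but not directions.

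Of 28846 rows, 6640 controls were left out, and 22206 rows were fitted to group means on 32 arrays by lmFit and eBayes of limma 3.58.1 (R 4.3.3, two-sided, 32.1 degrees of freedom), with no covariate or block. Symbols came from the entries of the platform annotation that name 1 symbol, with the row of highest mean per symbol. Genes to be named were all members, per list the 3 called genes with the largest difference at each site and any gene called in opposite directions, and the 3 genes most like each member. Members and lists were chosen with earlier results of these data known. The labels do not say that samples of a group come from separate litters or cages, and the number of arrays limits precision. The fit was checked on simulated data. Alternatives were fits of 2 groups, array weights, equal medians, dim rows left out, values raised to background, a trended prior, blocks for mouse number, and fits without single arrays or without sham back mice 1 and 2.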

Additional observations from a re-analysis of the deposited data

Results flagged for a closer look

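In 3 cases a single array stood far from the rest of their group, among 36 sets of 8 arrays looked at, and about 1 in 20 such sets shows one by chance. Mrc1 was lowest in HDM back skin in mouse 5, at 12.26, with a gap of 1.36 in a range of 2.42. Folr2 was lowest in HDM back skin in mouse 3, at 6.90, with a gap of 0.93 in a range of 1.28. Adgre1 was highest in sham ear in mouse 2, at 8.50, with a gap of 0.64 in a range of 1.17.

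The HDM effect differed between ear and back skin in the test of the difference itself (limma, adjusted over all rows) for 8 genes. The difference of effects was 2.82 for Cd163, 2.81 for Mrc1, 2.56 for C1qb, 2.21 for C1qc, 1.76 for Lyz2, 1.63 for Csf1r, 1.58 for C1qa and 1.49 for Folr2. The calls of C1qa and Folr2 were lost when some arrays were left out, as given below. The HDM ears spread more widely than the other groups for Cd163, Mrc1 and the C1q chains, with SDs of 1.08 to 1.20 against 0.19 to 0.77, and the fit takes 1 spread for all groups.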

How the results depend on the processing

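Under the alternatives other than leaving out single arrays, 490 values were labelled the same and 38 were not. The values were differences of single genes and counts of called genes or rows. Of the 38, 13 were differences that gained a call, 9 were differences that lost one and 1 changed sign. The other 15 were counts that moved. Smaller moves of a count were labelled the same, as from 8 to 6 called genes for the difference of effects. All 9 genes stayed called in ear under each of these alternatives. In back skin 1 gene, C1qa, was called higher (0 in the fit as reported) with only the 2 groups, array weights, equal array medians, the fixed replicate block for mouse number, or without sham back mice 1 and 2, with adjusted p of 0.00987, 0.0221, 0.0409, 0.0184 and 0.0259. The fixed block also held only the 2 groups, and it joined HDM and sham samples of equal mouse number, which the labels do not pair. Csf1r in back skin reversed to 0.13 without sham back mice 1 and 2. In HDM ear against HDM back skin 1 gene, Adgre1, was called lower (0 as reported) with array weights, equal medians, dim rows left out, a trended prior, either replicate block, or without sham back mice 1 and 2, with adjusted p between 0.0321 and 0.0479. With single arrays left out this count was 0 to 1, being 1 in 10 of 32 fits, those without sham back mouse 1, 2, 7 or 8, HDM back mouse 4, 5 or 6, sham ear mouse 2 or HDM ear mouse 2 or 4. For the difference of effects, the call of Folr2 was lost in 26 of 32 such fits (adjusted p 0.0187 to 0.0875), all but those without sham back mouse 4 or 8, sham ear mouse 7 or HDM ear mouse 3, 6 or 8. That of C1qa was lost in 12 (0.0125 to 0.0661), those without sham back mouse 1, 2 or 7, HDM back mouse 1, 2 or 8, sham ear mouse 3, 4 or 5, or HDM ear mouse 1, 2 or 5. Adgre1 gained one without sham back mouse 8 (0.0434) and with values raised to background (0.0264). C1qa lost it with array weights (0.0761) and equal medians (0.0563), and Folr2 likewise (0.0866 and 0.0716). C1qc between the HDM groups lost its call in the fixed replicate block (0.0547).

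Values raised to background gave 15862 rows called in ear, 12103 for the difference of effects and 15246 between the sham groups, and 8306, 8201 and 8389 of these were among the 8545 dim rows, whose spread that step removes. The same step, applied after the results were seen to Aif1 in ear and Clec4e at both sites, kept their direction and call (adjusted p 1.2e-05 to 0.00039). Equal array medians moved the share of calls that were higher to 63.6% in back skin, against 41.9% as reported, to 45.8% for the difference of effects, against 66.8%, and to 67.3% between the sham groups, against 52.6%.

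Samples of the same mouse number did not deviate together, so the numbers were not taken as pairs: correlations of deviations were -0.08 to 0.14 between HDM back skin and HDM ear and -0.11 to 0.04 between sham back skin and sham ear, and 1 of 8 and 0 of 8 samples were closest to their own number. The random replicate block had an estimated correlation of 0.0148. No member had several rows, so averaging rows gave no value.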
